A study of Homo sapiens with 4 samples.

Results

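Chromatin accessibility was examined at the 10 genes that encode the subunits of Polycomb repressive complex 2 (PRC2), namely EZH2, EZH1, EED, SUZ12, RBBP4, RBBP7, JARID2, AEBP2, MTF2 and PHF19. Each gene was taken as its GENCODE release 44 gene body in hg38 with 10 kb on either side, which gave 1.221 Mb in all. Overlapping peaks of the 4 libraries were merged into regions, and 53 of the 80551 merged regions of the series lay in these windows. The genes were chosen by name and not by their accessibility, although results of the same libraries were already known.

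PRC2 places methyl groups on lysine 27 of histone H3, a mark of silenced chromatin. EZH2 or its paralog EZH1 is the catalytic subunit, and it is active only when bound to EED and SUZ12. RBBP4 and RBBP7 are histone-binding WD-repeat proteins of the core. Accessory subunits define the variants of the complex, with JARID2 and AEBP2 in PRC2.2, and MTF2 and PHF19, which are Polycomb-like proteins, in PRC2.1. In liver cancer cells EZH2 is usually abundant, and tazemetostat (EPZ-6438) occupies the cofactor pocket of its catalytic domain.

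The series held 4 ATAC-seq libraries of HepG2, a human hepatoma cell line of wild-type genotype per the labels. The control group was 2 libraries labelled untreated, and the tazemetostat group was 2 libraries from cells given 5 μM of the drug, dissolved in DMSO, for 48 h. Whether the controls received DMSO was not stated, nor whether the libraries of a group came from separate cultures, so p-values measure only the spread between these libraries. Omni-ATAC used 50000 cells per library, and all cells were from 1 line.

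Depth was 17191428 and 23800380 mapped tags in the controls and 19844503 and 26564400 under tazemetostat, and the controls had fewer peaks, 26133 and 34768 against 55313 and 54157. Peaks held 4.32% and 5.69% of the control tags and 11.5% and 9.81% of the tazemetostat tags. The fragment length that the peak caller used was 200 bp in both controls and 144 bp in both tazemetostat libraries, so this setting and the treatment cannot be told apart. Depth overlapped between the groups. Peak number, the share of tags in peaks and the fragment length differ between them beside every comparison made here. The part of any of these in the results was not tested. Of 9 hepatocyte marker promoters, 8 had a peak in at least 1 library, against 2 of 4 leukocyte, 0 of 3 endothelial and 2 of 3 fibroblast markers. ALB and PTPRC were among those without a peak, whereas HNF4A and LYZ had one in all 4 libraries.

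The promoter stretches of 5 of these genes are given because the comparisons turn on them. They comprise 4 promoters with a peak in every library, and SUZ12 as a core gene that lacked one in control 1. Each runs 5′ to 3′ along the gene's strand, from 250 bases before the start site to the first annotated exon base of the gene, and lies wholly inside the merged promoter region. All come from the RefSeq promoter table (GRCh38.p14). Capitals mark the letters CCAAT (bound by NF-Y), GGGCGG (SP and KLF factors), TTTGGCGC, TTTCGCGC, TTTCCCGC or TTTGGCGG (E2F), CCGGAAGT (ETS), AAGATGGC (YY1), TGACGTCA (CREB and ATF), GCGCATGC (NRF1), CACGTG (E-box), and CAAAGTCCA or CAAAGTTCA (HNF4), read on both strands.
EZH2, chr7:148884322-148884541, minus strand: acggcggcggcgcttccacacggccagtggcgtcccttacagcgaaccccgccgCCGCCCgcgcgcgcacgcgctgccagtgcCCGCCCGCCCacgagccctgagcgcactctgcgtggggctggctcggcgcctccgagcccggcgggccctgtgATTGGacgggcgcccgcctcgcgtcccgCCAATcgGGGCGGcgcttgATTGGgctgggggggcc
EZH1, chr17:42745050-42745290, minus strand: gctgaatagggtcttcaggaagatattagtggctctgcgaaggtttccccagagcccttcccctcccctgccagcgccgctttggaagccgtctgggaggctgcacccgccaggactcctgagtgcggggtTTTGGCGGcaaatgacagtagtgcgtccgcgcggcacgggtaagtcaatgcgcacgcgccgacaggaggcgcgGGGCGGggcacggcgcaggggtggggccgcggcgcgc
RBBP4, chr1:32650958-32651141, plus strand: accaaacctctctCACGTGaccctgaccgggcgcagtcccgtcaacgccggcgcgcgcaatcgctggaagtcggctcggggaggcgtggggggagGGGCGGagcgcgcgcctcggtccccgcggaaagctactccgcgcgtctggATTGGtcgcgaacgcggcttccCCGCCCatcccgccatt
JARID2, chr6:15245819-15246068, plus strand: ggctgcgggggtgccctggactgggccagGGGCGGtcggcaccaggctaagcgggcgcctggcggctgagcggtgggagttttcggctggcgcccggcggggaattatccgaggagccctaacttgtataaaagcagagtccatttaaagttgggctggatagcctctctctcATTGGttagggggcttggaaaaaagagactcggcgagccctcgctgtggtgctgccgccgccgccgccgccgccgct
SUZ12, chr17:31936757-31937006, plus strand: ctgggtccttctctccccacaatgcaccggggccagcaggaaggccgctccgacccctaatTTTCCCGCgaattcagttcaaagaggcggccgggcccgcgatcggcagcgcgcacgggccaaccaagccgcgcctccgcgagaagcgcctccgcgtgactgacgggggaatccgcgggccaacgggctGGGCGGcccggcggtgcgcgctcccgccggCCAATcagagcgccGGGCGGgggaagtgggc

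The EZH2 stretch held 3 CCAAT and 4 GGGCGG matches, a pair of the latter overlapping each other. JARID2 held 1 match of each. Over the 300 bases of each table entry, which run 250 bases before to 50 after the start, all 10 genes were matched by symbol, and the entry nearest to the canonical start was used. CCAAT stood in 7 of the 10 entries, against 34.6% of the 35116 promoters in the table, and GGGCGG in 8 of 10, against 45% of all. Any of the 4 E2F strings was found in 5 entries, against 3.35% of all promoters. These were TTTGGCGC in EZH2 (0.652% of all, and beyond the printed stretch), TTTGGCGG in EZH1 (0.652%) and TTTCCCGC in SUZ12, MTF2 and PHF19 (1.63%), while TTTCGCGC (0.515%) was in none. The E-box letters of RBBP4 stood in 7.26% of all promoters. The NRF1 letters were found in EZH1 (3.05% of all) and those of YY1 in PHF19 (2.89%), and the ETS (4.14%) and CREB and ATF (1.85%) letters in no member entry. Neither HNF4 string was found in a member entry, and these stood in 0.384% and 0.296% of all promoters. The start site of the AEBP2 entry is 1107 bases downstream of the canonical start, and the entry lies outside its peak. GC content of the member entries ran from 52.3% in EED to 79.7% in PHF19, with a median of 58.7% over the table. The letters are a description of the sequence and say nothing about binding.

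A promoter region was taken as the merged region that overlapped 1 kb before to 100 bp after the canonical start or, failing that, the start of another transcript. At the promoters, 5 of the 10 genes had a peak in every library (EZH2, EZH1, RBBP4, JARID2 and AEBP2), and 4 had one in every library except control 1 (EED, SUZ12, RBBP7 and MTF2). Over all coding genes with a promoter region, 50.9% of these regions had a peak in all 4 libraries and 14.1% lacked one in control 1 alone. Promoters with a peak numbered 5 and 9 in the controls and 10 and 9 under tazemetostat. The lists hold called peaks alone, so where a library had none, its level is unknown. Signal is given as the normalised tag count, the tags in a peak per 10000000 mapped tags of its library. The lowest listed were 6.4 and 5.04 in the controls and 5.04 and 4.89 under tazemetostat. Control 1, the library without the 4 promoter peaks, also had the fewest tags and peaks, and the part of either in this was not tested.

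**Figure D1:**
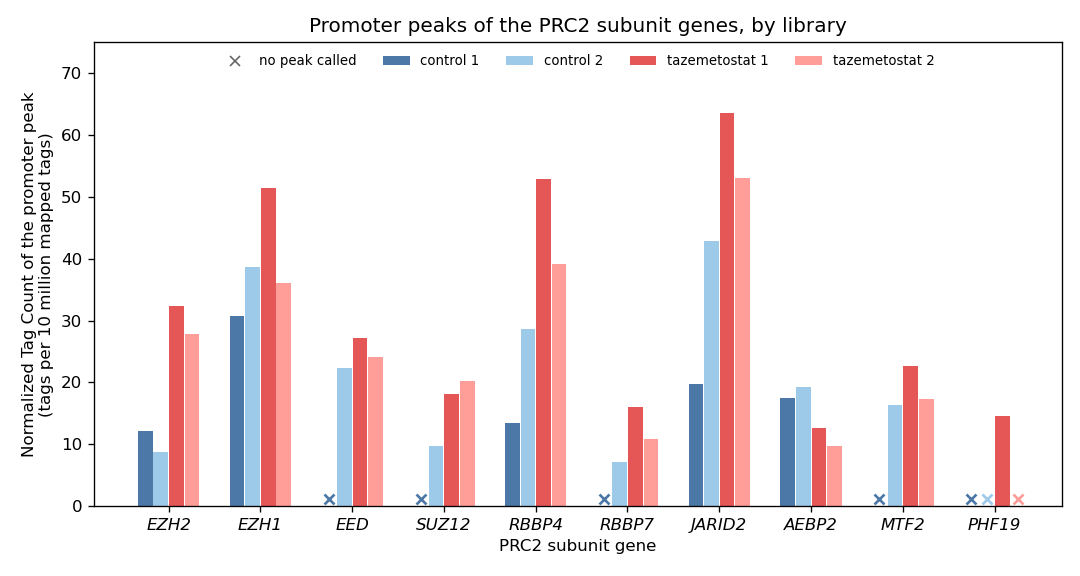
Normalized Tag Count of the promoter peak of each PRC2 subunit gene (vertical axis, tags per 10000000 mapped tags), 1 bar for each library, with a cross where no peak was called. The EZH2 bars under tazemetostat, 32.3 and 27.9, stand above both controls, 12.2 and 8.82, whereas the AEBP2 bars are lower under tazemetostat, and 4 genes lack a bar in control 1 alone.

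At the catalytic subunit genes, the EZH2 promoter rose and the EZH1 promoter did not pass the test. The EZH2 region (chr7:148884028-148884924) overlapped noncoding sequence of the first exon. Its normalised tag count was 12.2 in control 1 and 8.82 in control 2, and 32.3 and 27.9 in the tazemetostat libraries. Both treated libraries thus lay above both controls. On the log2(value + 1) scale the difference was 1.45 (SE 0.30), a 2.72-fold increase (limma, adjusted p = 0.00632, n = 2 per group). Only 1.81% of the 15383 tested regions had a larger change. The peak was also longer, at 651 and 826 bp against 445 and 375 bp. Tags per kb of peak were 49.6 and 33.8 under tazemetostat against 27.4 and 23.5, and the log2 difference of this density was 0.67 (limma, adjusted p = 0.016). In that fit 5063 of the 15383 tested regions were higher, and the median over all of them was 0.41. Fold over the local background did not separate the groups, with 6.72 and 5.15 in the controls and 6.1 and 7.02 under tazemetostat. The call rested on the scaling to mapped tags. The median change over all tested regions was 0.70. On the log2 scale the library medians were 4.062 and 4.343 in the controls against 5.057 and 4.868. After centring each library on its median the EZH2 difference was 0.69 (limma, adjusted p = 0.431). With TMM factors it was 0.82 (edgeR, adjusted p = 0.332). Without tazemetostat 1 the EZH2 difference was 1.34 (limma, adjusted p = 0.232) and without tazemetostat 2 it was 1.55 (adjusted p = 0.0976). With either library left out no region of the series passed, while 3284 and 6121 were higher at an unadjusted p under 0.05, so these p-values do not bear on EZH2 alone.

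EZH1, the paralog with weaker methyltransferase activity that is common in non-dividing cells, had a promoter region at chr17:42744292-42745306. Its tag counts were 30.8 and 38.7 in the controls and 51.4 and 36.1 under tazemetostat, and the groups overlapped. The log2 difference was 0.31 (SE 0.31, limma, adjusted p = 0.364), and it turned negative, at -0.45, under median centring and, at -0.40, with edgeR's TMM factors and with DESeq2. In 86.5% of the tested regions the change was larger. Peak lengths were 807 and 793 bp in the controls and 938 and 718 bp under tazemetostat.

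**Figure D2:**
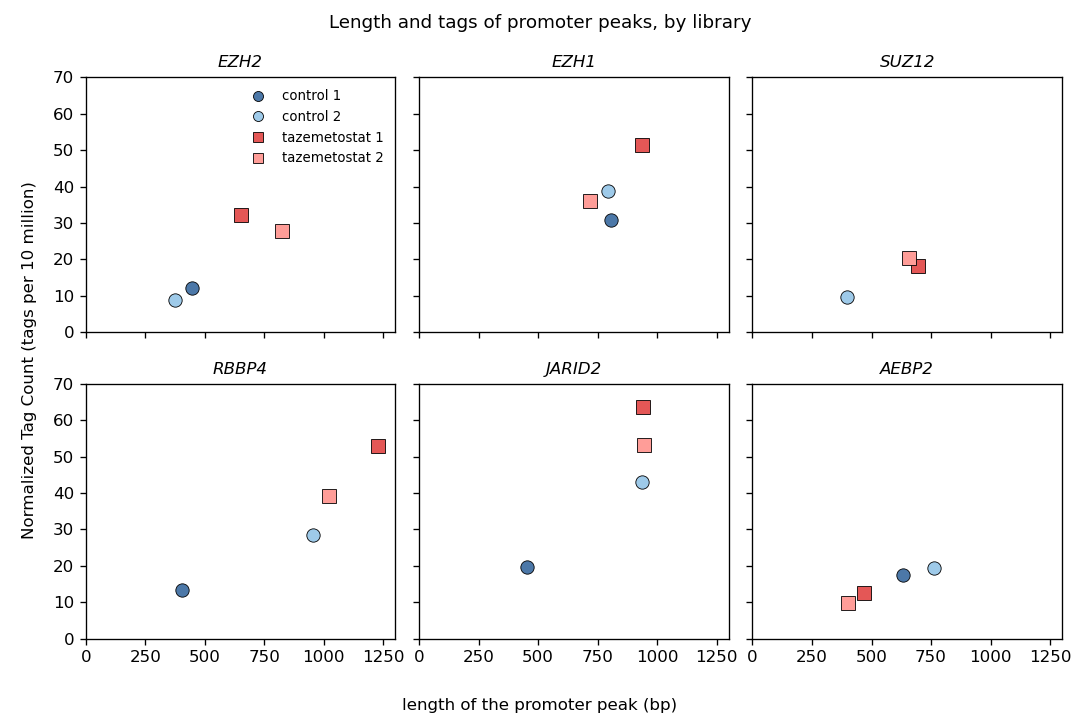
Length of the promoter peak in bp (horizontal axis) and its Normalized Tag Count in tags per 10000000 mapped tags (vertical axis) for 6 genes, 1 point for each library with a peak, circles for controls and squares for tazemetostat. Lengths and tag counts of divided peaks were summed. EZH2 and SUZ12 peaks are longer and hold more tags under tazemetostat, AEBP2 peaks are shorter and hold fewer, and the EZH1 points of the groups overlap.

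Among the core genes, EED encodes the subunit that reads trimethylated lysine 27 and SUZ12 the scaffold that holds the core together. The EED promoter region (chr11:86244287-86245451) also took in the start of an antisense gene without a symbol. It had no peak in control 1, a tag count of 22.3 in control 2, and 27.2 and 24.1 under tazemetostat, where tazemetostat 1 had 2 peaks that were summed. At SUZ12 (chr17:31936598-31937302), whose region also reached coding sequence, control 1 had no peak and control 2 had 9.66, against 18.1 and 20.3. Control 2 was the lowest of the 3 libraries with a peak at both genes, and the margin was narrow at EED.

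RBBP4 and RBBP7 encode closely related proteins that bind histones H3 and H4 and that also serve other chromatin complexes. The RBBP4 region (chr1:32650223-32651451) was a shared promoter with the divergent gene ZBTB8OS, and accessibility there cannot be assigned to either gene. Its tag counts were 13.4 and 28.6 in the controls, the latter summed over 2 peaks, and 52.9 and 39.2 under tazemetostat, so the groups did not overlap. With tags of divided peaks summed, the RBBP4 promoter rose by a log2 difference of 1.17 (SE 0.35, limma, adjusted p = 0.0211). The peak was 404 bp long in control 1, the 2 peaks of control 2 were 955 bp together, and those under tazemetostat were 1228 and 1022 bp. RBBP7 (chrX:16870209-16870922) had no peak in control 1, 7.14 in control 2, and 16.1 and 10.9 under tazemetostat.

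In PRC2.2, both subunit genes had promoter peaks in every library, and JARID2 values were higher and AEBP2 values lower under tazemetostat. JARID2, a catalytically inactive Jumonji protein that helps recruit PRC2, had the highest promoter tag counts of the 10 genes under tazemetostat and in control 2. Its region (chr6:15245171-15246196), shared with the divergent transcript JARID2-DT, had 19.8 and 42.9 in the controls and 63.5 and 53.1 under tazemetostat, where tazemetostat 1 was summed over 2 peaks. The groups did not overlap, although the controls were further apart than control 2 and tazemetostat 2. With peaks summed, the JARID2 promoter rose by a log2 difference of 0.97 (SE 0.34, limma, adjusted p = 0.0372), which without tazemetostat 1 was 0.84 (adjusted p = 0.279). The fits with summed peaks, for RBBP4 and JARID2, were scaled to mapped tags alone. With peaks summed, 2349 of 5691 coding-gene promoters were higher.

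AEBP2, a zinc-finger subunit that stabilises the complex on nucleosomes, was the only gene of the 10 whose promoter tag counts were lower in both tazemetostat libraries than in both controls. The canonical promoter region (chr12:19439070-19439832), which took in coding sequence, had 17.5 and 19.3 in the controls and 12.6 and 9.79 under tazemetostat. Both treated libraries lay below both controls, as in 1.75% of all tested regions. The log2 difference was -0.68 (SE 0.30), which did not pass (limma, adjusted p = 0.0652), and only 0.36% of tested regions had a lower change. Its peaks were also shorter, at 469 and 400 bp against 631 and 762 bp, and its tags per kb, 27.7 and 25.3 in the controls, were 26.9 and 24.5 with the drug, a log2 difference of -0.05 (limma, adjusted p = 0.865). With TMM factors, which remove the shift of all regions, the AEBP2 promoter was lower by a log2 difference of -1.43 (edgeR, adjusted p = 0.024), and that fit called 1.21% of all tested regions lower and 0.176% higher. The other fits that remove this shift did not call it, with -1.44 after median centring (limma, adjusted p = 0.136) and -1.44 in DESeq2 (adjusted p = 0.171). An upstream AEBP2 start (chr12:19402913-19403510) showed the other direction, with 14.5 and 16.4 in the controls and 28.7 and 19.6 under tazemetostat. The groups did not overlap there, and its log2 difference of 0.59 (SE 0.30) did not pass in limma (adjusted p = 0.103) and was -0.17 after median centring and -0.09 with TMM factors and DESeq2.

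In PRC2.1, MTF2 and PHF19 encode Polycomb-like proteins that bind unmethylated CpG-rich DNA. The MTF2 promoter (chr1:93078869-93079611) was the only region in its window, with no peak in control 1, 16.4 in control 2, and 22.7 and 17.3 under tazemetostat. Control 2 and tazemetostat 2 were close to each other. At PHF19 the canonical promoter (chr9:120877371-120877671) had a peak in tazemetostat 1 alone, at 14.6. A region at other PHF19 starts (chr9:120876052-120876694) had no peak in control 1, 11.3 in control 2, and 30.2 and 13.6 under tazemetostat. That region lay near the threshold of the caller, with a fold over local background of 4 to 4.3.

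For the promoters that lacked a peak in control 1, a limma fit without that library left control 2 as the lone control, which was assumed to vary like the tazemetostat group. SUZ12 then had a log2 difference of 0.92 (SE 0.37, adjusted p = 0.0697), RBBP7 one of 0.81 (SE 0.37, adjusted p = 0.109), and MTF2 one of 0.26 (SE 0.37, adjusted p = 0.596). None passed. EED could not be fitted in this way because of its divided peak, and EZH2 passed with 1.66 (limma, adjusted p = 0.000713).

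Only regions with exactly 1 peak in every library were tested, which left 3 promoters and 11 regions of the 53. Among the promoters 1 of 3 was higher (EZH2), where limma called 43.9% of the tested coding-gene promoters higher. In the windows 4 of 11 regions were higher and 0 were lower, against 42.7% and 0.247% of all tested regions, and 1 region, the AEBP2 promoter, was lower at an unadjusted p under 0.05. The share of higher regions was thus near that of the series. Both tazemetostat libraries were above both controls in 7 of the 11 regions, against 81.6% of all tested. The median log2 change of the 3 promoters was 0.31, against 0.72 over coding-gene promoters and 0.70 over all regions. The count of 4 changed when a library was left out, and the number of regions tested changed too, except without tazemetostat 2. There were 15 without control 1, 14 without control 2, 13 without tazemetostat 1 and again 11 without tazemetostat 2. Such a fit leaves 1 library in a group, so its count cannot be set against 4. The count of higher regions was 0 after median centring, with TMM factors or with DESeq2. At an unadjusted p under 0.05, these fits had 1, 2 and 0 of the 11 regions higher and 3, 2 and 1 lower.

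**Figure D3:**
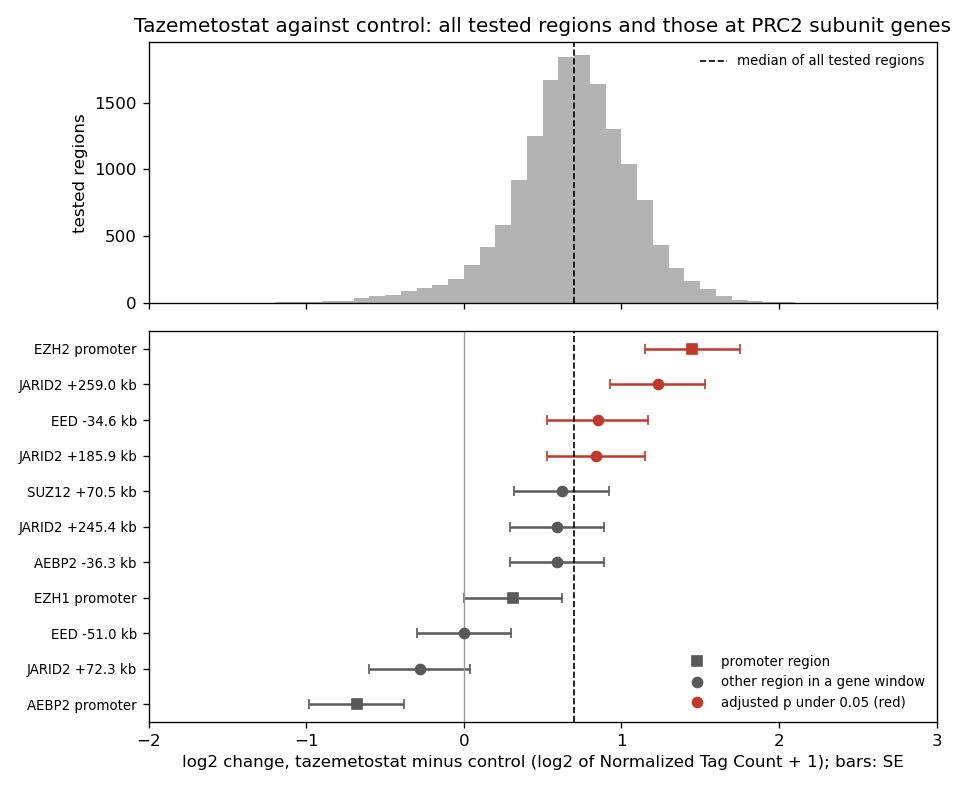
Upper panel, number of tested regions by log2 change (tazemetostat minus control). Lower panel, the 11 tested regions at PRC2 subunit genes with their SE, labelled by the distance of their centre from the canonical start, squares for promoters and red for adjusted p under 0.05 in limma. EZH2, at 1.45, lies right of the median of 0.70 marked by the dashed line, and the AEBP2 promoter, at -0.68, lies at the left edge.

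The other 3 regions that rose were named after their values were seen. An EED region at chr11:86209697-86210532, in an intron of transcripts that begin upstream of the canonical start, had 20.4 and 38.2 in the controls and 47.4 and 55 under tazemetostat. Its log2 difference was 0.85 (SE 0.32, limma, adjusted p = 0.042), and its fold over local background was 12.1 and 16.1 under tazemetostat against 9.24 and 5.34. In JARID2, an exon-overlapping region at chr6:15504725-15505421 had 15.7 and 21 in the controls. Under tazemetostat it had 48.9 and 39.5, and the log2 difference was 1.23 (SE 0.30, limma, adjusted p = 0.0105). An intronic region at chr6:15431680-15432235 had 11.6 and 17.6 against 29.2 and 23.7, with 0.84 (SE 0.31, limma, adjusted p = 0.0375). Fold over local background overlapped between the groups at both JARID2 regions. It was 4.62 and 6.03 in the controls against 6.02 and 4.67 at the exon region. At the intronic region it was 7.19 and 13.75 against 13.52 and 10.63. In each of the 3 regions both treated libraries lay above both controls in tag count. After median centring their differences were 0.09, 0.47 and 0.08, and none passed (limma, adjusted p = 0.941, 0.502 and 0.936). Per kb of peak the EED region passed with 0.82 (limma, adjusted p = 0.00393), and the JARID2 regions, with 0.31 and 0.48, did not (adjusted p = 0.234 and 0.0724). In that fit 5063 of the 15383 tested regions were higher.

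JARID2 held 21 of the 53 regions, in a gene body of 276 kb, whereas AEBP2, with 316.8 kb, held 3. JARID2 also held 4 of the 5 regions that both tazemetostat libraries, but no control, called as a peak. These 4 were intronic, centred 20665, 33159, 155879 and 184939 bp after the start. Their tag counts were 11.6 and 19.2, 12.1 and 14.3, 11.6 and 15.8, and 11.6 and 9.41, below the gene's promoter in every case. The other lay upstream of AEBP2 at chr12:19395785-19396397, with 13.6 in both treated libraries. These 5 regions were 9.43% of those in the windows, against 13.7% of all regions, and no region (0 of 53) had a peak in both controls and neither tazemetostat library, against 0.449% of all. The count of 5 became 7 without control 1, 11 without control 2, and 11 and 12 without tazemetostat 1 and 2. Leaving out a library loosens the rule for such a region, so these rises were built in. The share over all regions was not computed at these settings. The count was 0 when each library was held to its 26133 strongest peaks. Another JARID2 intronic region (chr6:15318052-15318604) had 11.1 and 16 in the controls and 8.57 and 13.6 under tazemetostat, with the groups overlapping. Its tags per kb did not overlap, at 37 and 42.3 against 19.8 and 28.8, and per kb of peak it was lower by a log2 difference of -0.71 (limma, adjusted p = 0.0115). That fit called 40 of the 15383 tested regions lower.

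**Figure D4:**
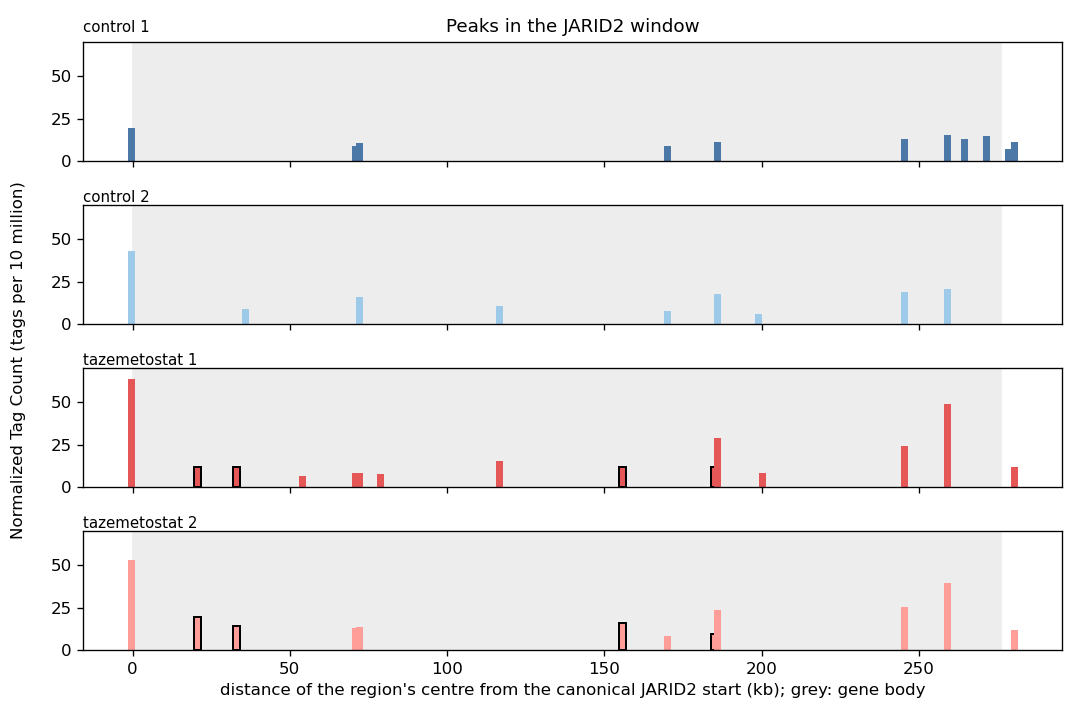
Normalized Tag Count (vertical axes, tags per 10000000 mapped tags) of the peaks in the JARID2 window, by distance of the region's centre from the canonical start in kb, 1 panel for each library, with the gene body in grey. Black outlines mark the 4 intronic regions with a peak in both tazemetostat libraries and neither control, with counts between 9.41 and 19.2.

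Peaks at neighbouring genes also fell in the windows. The LRRC37B start in the SUZ12 window (chr17:32007172-32007771) had 12.2 and 11.3 in the controls against 16.6 and 20.7, with a log2 difference of 0.62 that did not pass (SE 0.30, limma, adjusted p = 0.0851) and was -0.14 after median centring. An exon of SYNC in the RBBP4 window (chr1:32694546-32695748), which was named after its values were seen, had no peak in control 1, 12.6 in control 2, and 50.4 and 35.4 under tazemetostat. At LINC02695 in the EED window the counts were 8.73 and 6.3 against 8.57 and 6.4. The 24 regions called in 1 library alone, of which 20 had the minimum length of 300 bp, had normalised tag counts from 6.02 to 15.1, with 5 and 7 in the controls and 7 and 5 under tazemetostat.

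Summed over the 10 windows, 21 and 30 peaks were called in the controls (mean 25.5 ± 6.36, SD) and 36 and 34 under tazemetostat (35 ± 1.41), a difference of 9.5. The whole lists held 26133 and 34768 peaks against 55313 and 54157, and with each library held to its 26133 strongest peaks the direction turned, to 21 and 22 against 18 and 21. The difference was 5 without control 1. With 2 libraries per group the smallest two-sided p of the exact permutation test is 0.33, which this comparison reached. Over the 5 promoters with a peak in every library, the mean tag count was 18.7 and 27.7 in the controls and 42.5 and 33.2 under tazemetostat (exact permutation p = 0.33). Mean peak length, with the lengths of divided peaks summed, was 548 and 764 bp against 845 and 782 bp (exact permutation p = 0.33). The mean fold over local background, with the highest fold of divided peaks taken, was 7.2 and 5.3 against 5.39 and 5.54, and the groups overlapped (exact permutation p = 1). Tag count and length separated the groups, and local enrichment did not. Without control 1, when 9 promoters had a peak in every library left, the difference in tag count fell from 14.7 to 8.21 and that in length from 158 to 53.8 bp (exact permutation p = 0.67 for both), and without control 2 the length difference was 266 bp. The tested promoters of all coding genes moved the same way, with median tag counts of 19.2 and 23.5 in the controls against 39.8 and 33.1, and with peaks of 480 and 586 bp in the median control promoter against 690 and 676 bp.

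Other genes of the same pathway were read in the same way. Of 7 further genes for PRC2 accessory proteins and lysine 27 demethylases, 6 had a promoter region and 2 were tested. LCORL, which encodes a PRC2.1-associated protein, rose with 15.7 and 45.4 in the controls and 68 and 59.1 under tazemetostat (log2 difference 1.21, SE 0.37, limma, adjusted p = 0.0199). The demethylase gene KDM6A had 11.6 and 20.2 against 28.2 and 23.7 and did not pass (0.72, SE 0.32, limma, adjusted p = 0.0661). KDM6B, the other demethylase gene, had a promoter peak in both tazemetostat libraries, at 24.7 and 26, and none in the controls. LCOR had a promoter peak in every library, with divided peaks summed. Its counts were 14.5 and 26.9 in the controls against 14.6 and 30.5, and the groups overlapped. With peaks summed, 1 of 3 promoters of this list was higher, and the median was 0.72, against 0.73 over coding-gene promoters. Of 20 genes for PRC1, the complex that ubiquitinates histone H2A, 15 had a promoter region and 3 were tested. PCGF1, PCGF5 and PHC2 rose, by log2 differences of 1.26, 0.94 and 0.87 (limma, adjusted p = 0.0105, 0.0226 and 0.0369), which was 3 of 3 PRC1 promoters tested, against 43.9% of tested coding-gene promoters. With peaks summed 3 of 4 were higher, against 2349 of 5691 coding-gene promoters. The other PRC1 promoter, YAF2, had 23.3 and 27.7 in the controls against 36.8 and 28.2. The medians of the tested promoters were 0.96 for the 2 genes LCORL and KDM6A and 0.94 for the 3 PRC1 genes. After median centring they fell to 0.20 and 0.18. That of the 3 PRC2 subunit promoters was then -0.45, and that over tested coding-gene promoters -0.04. The list medians rest on 2 or 3 promoters each.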

How the data were processed

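ATAC-seq peak lists of 2 control and 2 tazemetostat HepG2 libraries were used, grouped by the treatment in the labels. The authors trimmed reads (Trim Galore 0.6.6), aligned them to hg38 (Bowtie2 2.3.5.1) and called peaks per library with HOMER 4.11.1, without pooling. Handling of reads that map to several places is not given in the sources used here. Per the file headers, peaks passed an FDR of 0.001, whereas the study's methods give 0.05, and a 4-fold enrichment over 10 kb. The deposited columns used were the Normalized Tag Count, a signal in tags per 10000000 mapped tags, the region length and the fold ratio over the local background. The deposited raw count (findPeaks score), p-value and clonal ratio columns gave no reported value.

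Peaks that shared 1 bp or more, in any library, were merged. Regions with exactly 1 peak in each library were tested with limma 3.58.1 on log2(value + 1), with Benjamini-Hochberg adjustment over all 15383 regions at 0.05. Mapped tags per library, given with the results, came from the headers. For edgeR 4.0.16 and DESeq2 1.42.0, whole tags were recovered as the Normalized Tag Count times mapped tags over 10000000, and 100% of peaks came within 0.25 of a whole number. The scripts were tested on simulated data. Values per library were compared by two-sided exact permutation.

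All 10 genes were named by rule, with the promoter region in full, and other regions where they were set apart by group or passed at another promoter. The genes, lists and motifs were chosen with earlier results of these data known. Alternatives were other scalings, filters, tools, overlaps and sets of libraries. ATAC-seq cut sites were not shifted here, and whether they were upstream is not given in the sources used here. Precision rests on few tags per peak, and no interval for a single library was drawn. The promoter sequence of AEBP2 is not reported here.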

Additional observations from a re-analysis of the deposited data

How the results depend on the processing

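With 2 libraries per group, replicate spread is poorly known, and the depth, the peak caller's fragment length and 1 cell line limit every comparison. A level below the calling threshold is not known, and tests cover 11 of 53 regions. After median centring, with TMM factors in edgeR and with DESeq2, 0 promoters and 0 window regions were higher, the promoter median was -0.45, -0.40 and -0.40, and the EZH1 change was -0.45, -0.40 and -0.40. By construction these remove a shift shared by all regions. Over all regions limma gave 6569 higher and 38 lower (99.4% of calls higher), TMM 27 and 186 (12.7%), DESeq2 3 and 106 (2.75%), and centring 0 and 0, with 468 and 1188 at an unadjusted p under 0.05. With peaks summed, 3 of 5 promoters were higher, with a median of 0.97, against 2349 of 5691 coding-gene promoters with a median of 0.73. The PRC2 promoter median was 0.88 with a mean tag count of at least 20 and with equal numbers of peaks, when 2 promoters were tested. Per kilobase of peak, 2 window regions were higher and 1, in JARID2, lower, against 5063 and 40 of all 15383 tested regions. The replicate block left 2 window regions higher (EZH2 promoter and the JARID2 exon region), with adjusted p = 0.0504 and 0.0531 in limma for the EED and JARID2 introns, and changed no promoter call. Deviations of same-numbered libraries correlated at -0.00246, which with 2 libraries per group cannot show whether the numbers pair them. Equal numbers of peaks left 0 tazemetostat-only and 1 control-only region and a peak difference of -2. A local fold of at least 8 left 0 tazemetostat-only regions and no member to test. Leaving out 1 library gave 0 to 2 promoters higher, a median of 0.45 to 0.85, 0 to 6 window regions higher, 7 to 12 tazemetostat-only and 0 to 7 control-only regions, and a local fold difference of -1.74 to 0.557. Causes beyond these constructions were not tested. The other 53 alternative values of these summaries kept direction, some with a change in size.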
